A study of Mus musculus with 24 samples.

Results

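The expression of 10 genes of JAK-STAT signaling and its feedback was examined in fetal liver cells of the mouse that carried GATA1s, with miR-125b or a control construct. They were the kinases Jak2 and Jak3, the transcription factors Stat3, Stat5a and Stat5b, the feedback inhibitors Socs1, Socs2, Socs3 and Cish, and the kinase Pim1. They were chosen by name, with earlier results of these data known. All 10 were found, each under a single Ensembl identifier, among the 47069 identifiers of the count table, and all 10 passed the filter on low counts that kept 13419 genes. The series held 24 RNA sequencing libraries in 8 groups of 3. Every group came from embryos at E12.5 to E13.5 of a B6J-derived mouse line with the allele Gt(ROSA)26Sortm1.1(CAG-cas9*,-EGFP), which expresses Cas9 and EGFP from the Rosa26 locus, and every group, the controls included, carried the guide sgGata1. GATA1s is a shortened form of GATA1, a transcription factor of megakaryocytes and red cells, without its amino-terminal part. The second transgene was miR-125b or miR-ctrl. Each arm was collected at day 2 after 48 h of doxycycline at 1 µg/mL, at day 10 with doxycycline at 1 µg/mL, at day 13 with doxycycline continued, and at day 13 with doxycycline withdrawn on day 10. The labels do not say whether the 3 replicates of a group were separate cultures or embryos, so p-values measure only the spread between these libraries.

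A cytokine that binds its receptor brings together the JAK kinases held on the receptor's tails, and these phosphorylate STAT proteins, which then enter the nucleus and switch on target genes. Among the targets are the inhibitors of the SOCS family and Cish, which bind the receptor or the kinase and damp the signal, and Pim1, a kinase that favours survival and growth. In blood cell precursors several cytokine receptors signal through Jak2 to the STAT5 proteins, and activating JAK mutations are known from the megakaryoblastic leukemia of children with Down syndrome.

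Libraries held 14694900 to 23755245 counts. Arid3a, the miR-125b target in the title of the series, had 28.5 to 41.3 CPM (counts scaled to a common library total, by TMM) with miR-125b and 52.1 to 68.3 with control at day 2, and 29.8 to 32.8 against 50.8 to 71.0 at day 10. In the libraries labelled day 13 with miR-125b it had 45.5 to 57.5 CPM, overlapping the control range of 49.5 to 71.9, and in those labelled day 13 after withdrawal 26.7 to 35.6 against 64.1 to 76.3. The target was thus low where miR-125b is labelled as withdrawn and not where it is labelled as continued. Whether the labels of these miR-125b libraries were exchanged was not tested, and every day 13 value below belongs to libraries labelled that way. Of the megakaryocyte markers, Itga2b had 1071 to 2259 CPM and Pf4 1058 to 3488, and the 18 listed markers summed to 3619 to 8852. The 12 lymphoid markers summed to 1.03 to 4.36 CPM and the 6 eosinophil markers to at most 1.01. Of the 14 hepatocyte and stromal markers, 11 stayed under 1 CPM in every library, Alb among them. The other 3, Afp, Col1a2 and Pecam1, brought the sum of that list to 127 to 201 CPM. In bulk RNA fewer cells of a type and less RNA per cell cannot be told apart.

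The sequences bear on whether miR-125b could pair with any of the 10 transcripts. Both mouse genes of miR-125b, on chromosome 9 (41581940 to 41581961) and chromosome 16 (77646279 to 77646300) of GRCm38, give the same mature strand in the RefSeq table, shown with its seed (bases 2 to 8) in capitals. The 7-base match CTCAGGG was searched in the longest annotated 3′ UTR (GENCODE M21) of each gene on the transcript strand and was present in 3 of the 10 genes, Stat3, Stat5b and Socs1. It was present in 15.9% of the 11665 tested genes with a 3′ UTR. The 8-base match CTCAGGGA, which adds the base opposite the first of the microRNA, was present in Stat3 alone among the 10 and in 5.61% of all. The stretches around the matches are shown with the match in capitals. A match is a description of letters and not a site of binding.
mmu-miR-125b-5p: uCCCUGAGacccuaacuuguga
Stat3 3′ UTR, 8-base match, chr11:100887685-100887692, minus strand: cctcagcaaagCTCAGGGAgtatggtcct
Stat3 3′ UTR, 7-base match, chr11:100887093-100887099, minus strand: tggtgttgtacCTCAGGGgctctgggaag
Stat5b 3′ UTR, 7-base match, chr11:100781818-100781824, minus strand: aaagtgaaagcCTCAGGGtgatttgttcc
Socs1 3′ UTR, 7-base match, chr16:10784058-10784064, minus strand: tcatcccacctCTCAGGGgtgggggtgct

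Levels between genes were compared as CPM per kilobase of annotated exon (RPKM), with the exons of all transcripts of a gene merged. The merged length was 9531 bases for Socs2 and 6419 for Cish, against 5030 for Jak2, and a longer one lowers the RPKM. Pim1 was the most abundant with a median of 93.5 over the 24 libraries (79.1 to 162), and its range did not touch that of Jak3, at 40.5 (28.8 to 58.6). Stat3 had a median of 18.6 (16.1 to 20.9), Stat5b 15.7 (11.7 to 21.1), Stat5a 13.0 (10.4 to 15.6) and Jak2 12.2 (10.2 to 15.3), and the ranges of neighbours in that order overlapped. The inhibitors had lower medians, although the range of Socs3 overlapped that of Jak2. The place of Socs2 depends on the merged length, since in CPM it had 44.8 to 69.3 against 51.15 to 76.7 for Jak2. Socs3 had a median of 7.68 RPKM (3.60 to 15.3), Socs2 5.63 (4.70 to 7.27), Cish 3.60 (1.64 to 6.03) and Socs1 1.93 (1.00 to 4.09), again with overlapping ranges between neighbours. Socs1 rested on 49 to 195 reads per library and Cish on 166 to 899, against 4182 to 12697 for Pim1, so the values of Socs1 carry the largest counting error of the 10.

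**Figure D1:**
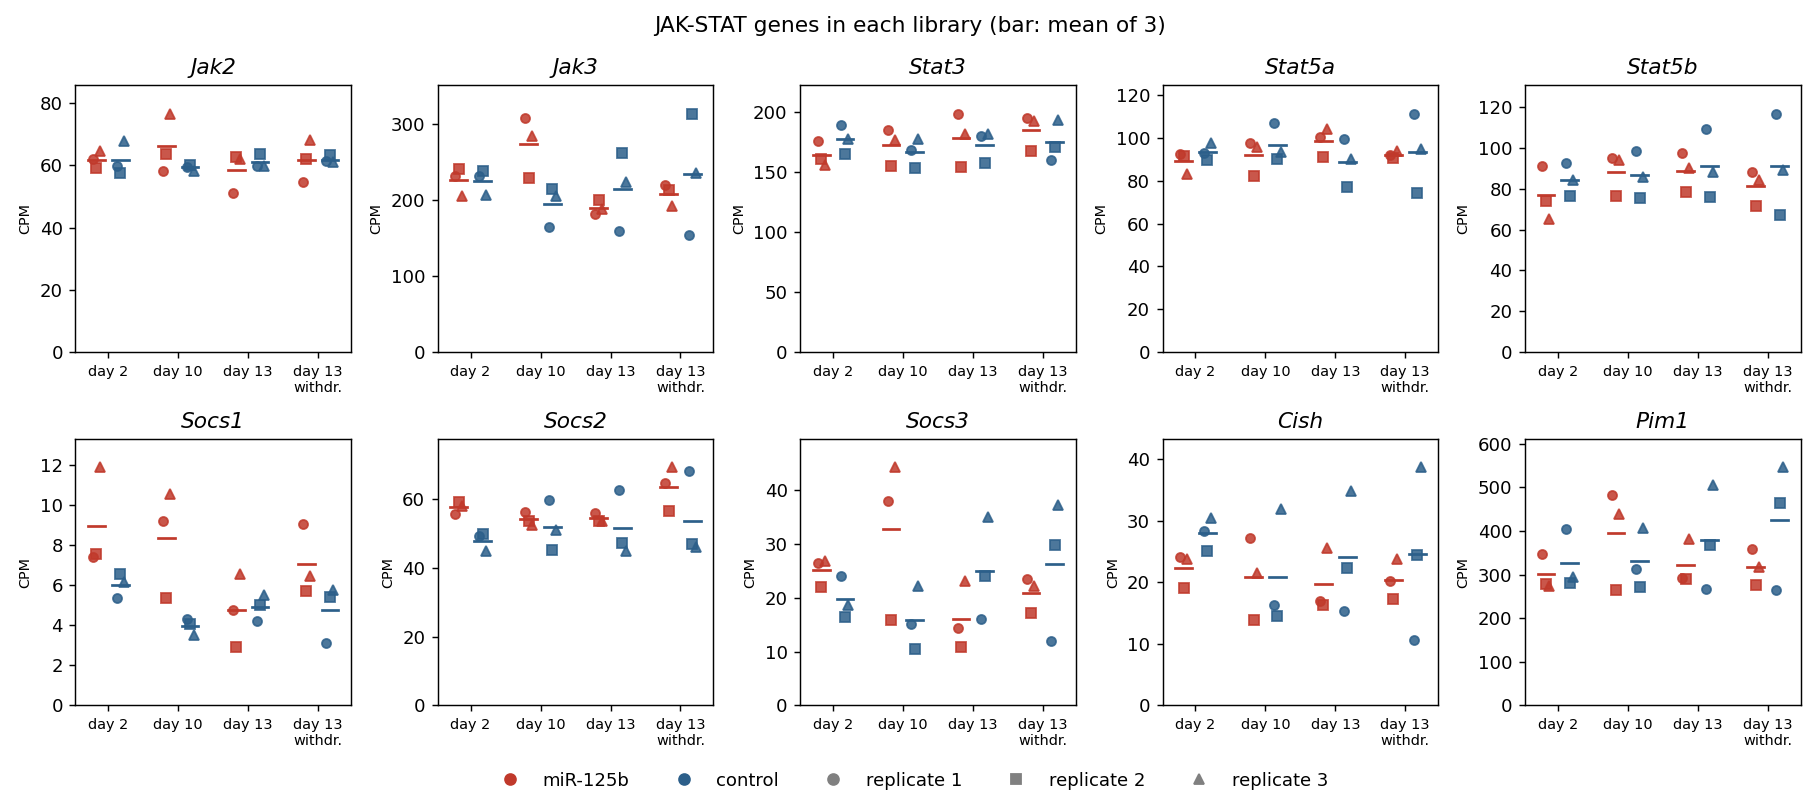
TMM-normalised CPM (vertical axes, from 0) of each gene in each of the 24 libraries, by condition (horizontal axes), with miR-125b in red and control in blue, marker shapes for the replicate number and a line at the mean of 3. The 3 miR-125b libraries of Socs1 lie above the 3 controls at day 2 and day 10, while the ranges of Jak2, Stat3 and Stat5a under both constructs overlap in every condition.

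The first question was whether miR-125b shifted these genes at any time. The edgeR quasi-likelihood fit was first made over all 24 libraries without a block for the replicate number, with p-values adjusted over all 13419 genes. In it 0 of the 10 passed an adjusted p of 0.05 in any of the 4 conditions or in their mean. Of all genes, 0% were called at day 2, 0.872% at day 10, 0% at day 13, 0.119% after withdrawal and 1.28% in the mean of the 4. At an unadjusted p under 0.05, 0, 3, 0, 0 and 2 of the 10 passed in that order, against 5.28%, 17.4%, 2.89%, 8.55% and 12.1% of all genes. DESeq2 called Socs1 alone of the 10 at day 10, where it called 4.29% of all genes, and in the mean of the 4, where it called 2.66%. The replicate numbers paired the libraries, and with the number as a block Socs1 was called at day 10 and in the mean of the 4 conditions and no other of the 10 was. With the block the shares of all genes called were 0% at day 2, 8.63% at day 10, 0.0149% at day 13, 1.86% after withdrawal and 6.39% in the mean of the 4. A count of 1 in 10 at day 10 is thus near the background of that fit. The median log2 fold change of the 10 genes was -0.03, 0.11, -0.06, -0.09 and 0.02 in the order above, against medians of 0.00, 0.00, -0.02, -0.01 and -0.01 over all genes.

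Without regard to any model, the 3 miR-125b and the 3 control libraries did not overlap in CPM for Socs1, Socs2 and Cish at day 2, where 12.3% of all genes did not, and for Jak3 and Socs1 at day 10, where 19.7% did not. No member was free of overlap at day 13 (8.52% of all genes) or after withdrawal (11.4%).

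**Figure D2:**
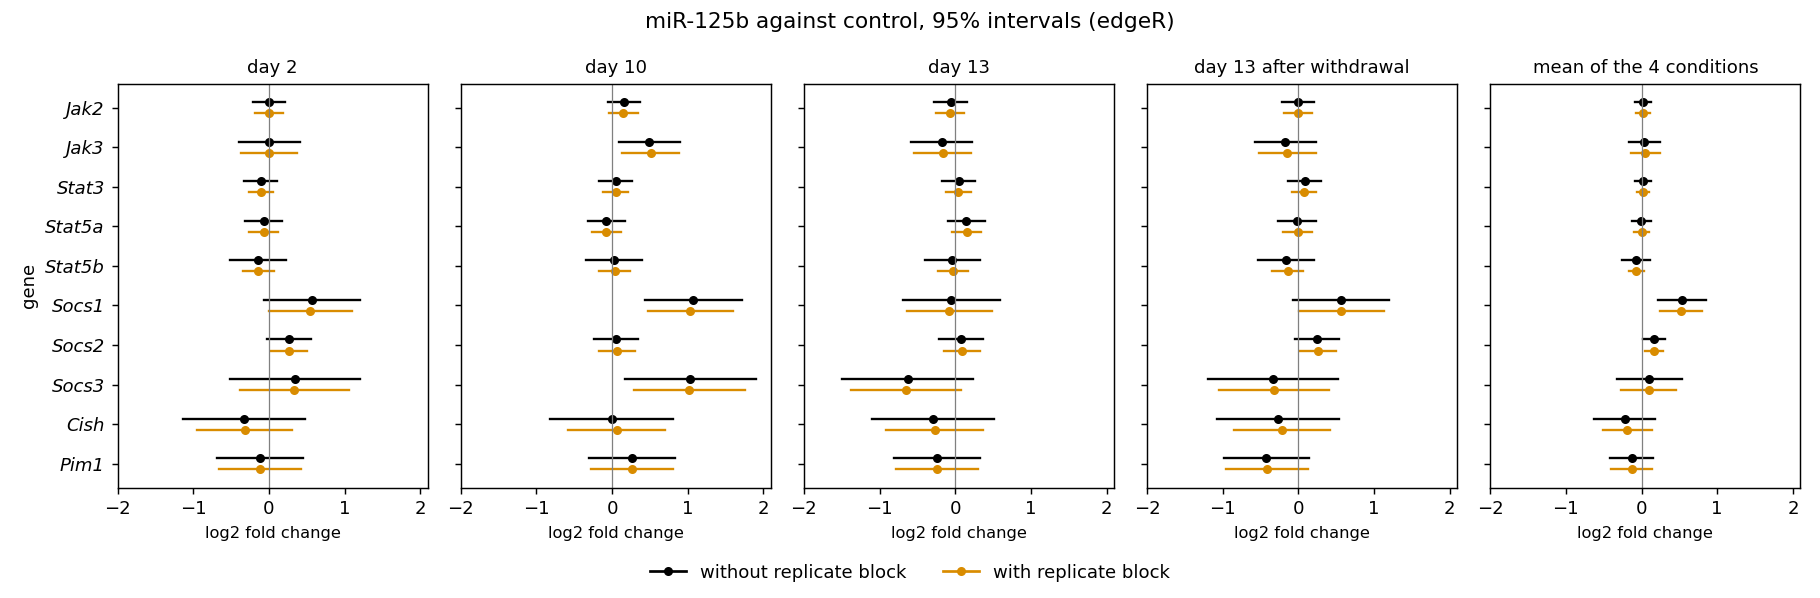
Log2 fold change of miR-125b against control (horizontal axes) for each gene (vertical axis) in each condition and in the mean of the 4, from edgeR with its 95% interval, without the replicate block (black) and with it (orange). The intervals of Jak2, Stat3 and Stat5a are narrow and span 0 throughout. Those of Socs1 lie above 0 in both fits at day 10 and in the mean of the 4. So do those of Jak3 and Socs3 at day 10 and of Socs2 in the mean of the 4. With the block alone, those of Socs1 after withdrawal and of Socs2 at day 2 and after withdrawal also lie above 0. The intervals are not adjusted for the number of genes.

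Jak2 (ENSMUSG00000024789, chr19:29251828-29313080, plus strand), the kinase of the erythropoietin receptor among others, was the steadier of the kinases. It had 59.0 to 64.5 CPM with miR-125b and 57.5 to 68.0 with control at day 2. Its highest value, 76.7 CPM, was in miR-125b replicate 3 at day 10 and its lowest, 51.1, in miR-125b replicate 1 labelled day 13. Its mean log2 fold change over the 4 conditions was 0.02 ± 0.05 (SE), with a 95% interval of -0.08 to 0.13 and an adjusted p of 0.928.

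Jak3 (ENSMUSG00000031805, chr8:71676296-71690575, plus strand) encodes the kinase that works with the common gamma chain of interleukin receptors and is otherwise known mostly from lymphoid cells. At day 2 it had 232, 241 and 205 CPM in miR-125b replicates 1 to 3 and 232, 238 and 206 in controls, which was nearly the same in each pair. At day 10 it had 308, 229 and 284 CPM under miR-125b against 165, 214 and 205 in control, so all 3 miR-125b libraries were above all 3 controls. The log2 fold change was 0.49 ± 0.19 (interval 0.09 to 0.89, adjusted p = 0.189, or 0.0795 with the block). In the libraries labelled day 13 the miR-125b values were 181, 200 and 187 CPM, inside the control values of 159, 261 and 224. After withdrawal they were 220, 213 and 192 CPM, again inside the controls at 154, 314 and 235. Averaged over the 4 conditions the log2 fold change was 0.04 ± 0.10 (interval -0.16 to 0.24, adjusted p = 0.939). Exons of Jak3 overlap those of Insl3 on the same strand. Insl3 held 1949 counts in all libraries together against 98250 for Jak3, and how reads in the shared part were divided is not stated.

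Stat3 (ENSMUSG00000004040, chr11:100885098-100939540, minus strand), the factor that answers interleukin-6 type cytokines, had the smallest ratio of the 10 between its highest (199 CPM) and lowest (154 CPM) library, 1.3-fold. It carried both the 8-base and the 7-base match to miR-125b. Its mean level was 165 ± 10.4 CPM (SD, n = 3 here and below) under miR-125b against 177 ± 11.9 in control at day 2, 173 ± 15.7 and 167 ± 12.4 at day 10, 179 ± 22.5 and 173 ± 13.6 at day 13, and 185 ± 15.3 and 175 ± 17.05 after withdrawal. The groups overlapped in every condition. Over the 4 conditions the log2 fold change was 0.02 ± 0.05, with an interval of -0.09 to 0.13 and an adjusted p of 0.950.

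Stat5a (ENSMUSG00000004043, chr11:100859351-100885169, plus strand) and Stat5b (ENSMUSG00000020919, chr11:100780731-100850724, minus strand), near-identical factors downstream of Jak2, lie side by side with Stat3. The 3′ exons of Stat3 and Stat5a overlap on opposite strands, and the counting is not stated to use strand. Stat5a had 89.1 ± 5.09 CPM under miR-125b against 93.6 ± 4.15 in control at day 2, and 91.9 ± 8.55 and 96.8 ± 8.85 at day 10. Its log2 fold change in the mean of the 4 conditions was -0.00 ± 0.06 (interval -0.13 to 0.12, adjusted p = 0.991). Stat5b, with a single 7-base match, had 76.7 ± 13.3 CPM against 84.5 ± 7.998 at day 2 and 88.4 ± 10.6 against 86.7 ± 11.5 at day 10. It had a log2 fold change of -0.08 ± 0.09 in the mean of the 4 (interval -0.26 to 0.11, adjusted p = 0.827). The highest and the lowest library of Stat5a, and the highest of Stat5b, were controls labelled day 13 after withdrawal. Replicate 1 there had 111 CPM of Stat5a and 117 of Stat5b, and replicate 2 had 74.5 and 67.2.

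Socs1 (ENSMUSG00000038037, chr16:10782240-10785536, minus strand), an inhibitor of JAK kinases best known for damping interferon signaling, was the member with the largest share of its variance between groups and the only one called in any fit given here with all 24 libraries. At day 2 it had 7.41, 7.54 and 11.9 CPM under miR-125b against 5.37, 6.54 and 6.15 in control. At day 10 it had 9.20, 5.38 and 10.5 CPM against 4.33, 4.08 and 3.53. The groups did not overlap at either time, and miR-125b replicate 2 at day 10 stood closest to the controls.

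In the libraries labelled day 13 Socs1 had 4.75, 2.91 and 6.57 CPM under miR-125b against 4.20, 5.01 and 5.53 in control, and after withdrawal 9.04, 5.71 and 6.45 against 3.12, 5.40 and 5.77. Both day 13 comparisons overlapped. Taken by replicate number, Socs1 was higher with miR-125b in 11 of 12 pairs, the exception being replicate 2 labelled day 13.

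The log2 fold change of Socs1 was 0.57 ± 0.30 at day 2 (adjusted p = 0.942), 1.07 ± 0.31 at day 10 (interval 0.43 to 1.71, adjusted p = 0.0882), -0.05 ± 0.31 at day 13 (adjusted p = 0.999) and 0.57 ± 0.30 after withdrawal (adjusted p = 0.639). Over the 4 conditions it was 0.54 ± 0.15 (interval 0.22 to 0.86, adjusted p = 0.0971). With the block it was 1.03 ± 0.27 at day 10 (adjusted p = 0.0243) and 0.52 ± 0.13 over the 4 conditions (adjusted p = 0.0225), which passed. DESeq2 without a block also called both, at adjusted p of 0.0242 and 0.0274. Over day 2 and day 10 alone, which leaves out the libraries with labels in doubt, it was 0.82 (adjusted p = 0.0713) without and 0.79 (adjusted p = 0.0157) with the block.

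The values and calls of Socs1 changed with single libraries. At day 2 the log2 fold change was 0.31 without miR-125b replicate 3, and after withdrawal it was 0.35 without miR-125b replicate 1 and 0.34 without control replicate 1. Without miR-125b replicate 2 at day 10 the fit without a block gave 1.31 at day 10 (adjusted p = 0.0203) and 0.60 over the 4 conditions (adjusted p = 0.0374). Without miR-125b replicate 2 labelled day 13 it gave 0.60 over the 4 conditions (adjusted p = 0.0459). The blocked call was lost without miR-125b replicate 1 (0.90, adjusted p = 0.102), miR-125b replicate 3 (0.93, 0.169), control replicate 1 (1.13, 0.0732) or control replicate 3 (0.84, 0.140) of day 10. In the mean of the 4 conditions it was lost without control replicate 3 at day 10 (0.47, 0.0525), miR-125b replicate 3 labelled day 13 (0.47, 0.0559) or miR-125b replicate 1 labelled as withdrawn (0.45, 0.0513).

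Markers of granulocytes and macrophages moved with Socs1. The 20 listed genes summed to 51.1 to 116 CPM with miR-125b and 30.5 to 41.5 with control at day 10, with no overlap, and to 57.2 to 85.1 against 38.8 to 54.3 at day 2, also without overlap. They summed to 41.0 to 62.1 against 26.4 to 54.6 at day 13, which overlapped, and to 57.1 to 70.5 against 29.7 to 51.6 after withdrawal, which did not. Prtn3, Lyz2 and Mpo reached 68.8, 28.03 and 28.4 CPM in their highest libraries, and 10 of the 20, among them Elane, Ly6g, Adgre1, Cd14 and the 3 C1q genes, stayed under 1 CPM in every library. Over the 24 libraries the log2 of the sum and Socs1 had a Pearson r of 0.75, a description of libraries that share groups. Their part in the level of Socs1 was not tested.

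Socs2 (ENSMUSG00000020027, chr10:95385362-95417180, minus strand), known as the brake on growth hormone signaling through STAT5, differed by less than Socs1. At day 2 it had 55.6, 59.2 and 57.9 CPM under miR-125b against 49.2, 49.8 and 44.8 in control, with no overlap. The day 2 log2 fold change was 0.26 ± 0.14 (adjusted p = 0.940). At day 10 the miR-125b values, 56.2, 53.6 and 52.4 CPM, lay inside the control values of 59.8, 45.1 and 50.9.

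The 3 miR-125b libraries of Socs2 labelled day 13 had 55.9, 53.7 and 53.6 CPM, between controls at 62.7, 47.4 and 44.9. After withdrawal the values were 64.8, 56.7 and 69.3 CPM against 68.1, 47.0 and 46.1, and the log2 fold change was 0.24 ± 0.14 (adjusted p = 0.666). Leaving out control replicate 1 of that condition gave 0.45, leaving out replicate 2 gave 0.16 and leaving out replicate 3 gave 0.15. Socs2 was higher with miR-125b in 9 of 12 pairs by number, and control replicate 1 was above its miR-125b partner from day 10 on. Over the 4 conditions the log2 fold change was 0.16 ± 0.07 (interval 0.01 to 0.30, adjusted p = 0.347, or 0.0875 with the block), which did not pass in either fit.

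Socs3 (ENSMUSG00000053113, chr11:117966079-117970047, minus strand), the inhibitor that binds interleukin-6 type receptors and a classical STAT3 target, had the largest ratio of the 10 between its highest and lowest library, 4.26-fold, from 10.4 to 44.3 CPM. At day 2 it had 26.5, 22.0 and 26.8 CPM under miR-125b against 24.1, 16.5 and 18.7 in control. At day 10 miR-125b replicates 1 and 3 were high at 38.02 and 44.3 CPM while replicate 2 had 15.9, within the controls at 15.2, 10.4 and 22.3. The log2 fold change at day 10 was 1.04 ± 0.41 (interval 0.17 to 1.90, adjusted p = 0.198, or 0.0725 with the block).

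In the libraries labelled day 13 the order of Socs3 turned, with 14.3, 10.96 and 23.2 CPM under miR-125b against 16.05, 24.03 and 35.0 in controls, each pair lower. After withdrawal it had 23.6, 17.1 and 22.1 CPM against 12.1, 29.9 and 37.2. The mean over the 4 conditions was a log2 fold change of 0.10 ± 0.20 (interval -0.33 to 0.53, adjusted p = 0.918).

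Cish (ENSMUSG00000032578, chr9:107296026-107302784, plus strand), an inhibitor that competes with STAT5 for the receptor and a direct STAT5 target, leaned the other way at day 2. It had 24.1, 19.1 and 23.8 CPM under miR-125b against 28.4, 25.1 and 30.5 in control, with no overlap. At day 10 the values were 27.2, 13.9 and 21.4 CPM against 16.3, 14.5 and 31.9, and labelled day 13 they were 16.97, 16.4 and 25.6 against 15.3, 22.3 and 34.8. After withdrawal they were 20.2, 17.3 and 23.8 CPM against 10.6, 24.5 and 38.7. Cish was lower with miR-125b in 9 of 12 pairs. The log2 fold change over the 4 conditions was -0.22 ± 0.19 (interval -0.63 to 0.18, adjusted p = 0.746), within the spread between libraries. That value was -0.12, -0.13 and -0.10 without control replicate 3 of day 10, day 13 and day 13 after withdrawal.

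Pim1 (ENSMUSG00000024014, chr17:29490753-29496112, plus strand), the survival kinase among the STAT targets, had 348, 279 and 275 CPM under miR-125b against 404, 281 and 294 in control at day 2. At day 10 it had 483, 266 and 439 CPM against 312, 272 and 408. Labelled day 13 the values were 293, 290 and 383 CPM against 266, 369 and 506, and after withdrawal 359, 276 and 317 against 266, 464 and 547. The groups overlapped in every condition. Over the 4 conditions the log2 fold change was -0.13 ± 0.13 (interval -0.41 to 0.15, adjusted p = 0.799).

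Socs3, Cish and Pim1 tended to go up and down together over the 24 libraries, under both constructs, though not within every group. At day 2 with miR-125b, replicate 3 was the lowest for Pim1 and the highest for Socs3. After withdrawal with miR-125b, replicate 3 was the highest for Cish and replicate 1 for the others. In miR-125b at day 10 all 3 were low in replicate 2. In control from day 10 on, replicate 3 was the highest of its group for all 3 genes, and in both day 13 groups replicate 1 was the lowest. Over the 24 libraries log2 CPM of Socs3 and Pim1 had r = 0.82, Cish and Pim1 0.74 and Socs3 and Cish 0.73. After the mean of each group was taken out the values were 0.94, 0.90 and 0.91, and after the mean of each replicate number was taken out 0.78, 0.70 and 0.63. These are descriptions over libraries that share groups and replicate numbers. Socs2 went the other way, with r = -0.52 to Cish and -0.43 to Pim1. Socs1 had r = 0.68 to Socs3 and 0.24 to Pim1, and 0.73 and 0.57 after the group means were taken out.

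Stat5a and Stat5b formed the other close pair, with r = 0.82 over the 24 libraries 0.91 after the group means and 0.67 after the means of the replicate numbers were taken out. Jak3 was opposed to Stat5a, at r = -0.64, and went with Socs3, at 0.65 over the 24 libraries and 0.90 after the means of the replicate numbers were taken out. Jak2 was not close to any of the others, its r lying between -0.25 with Stat3 and 0.30 with Socs3.

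**Figure D3:**
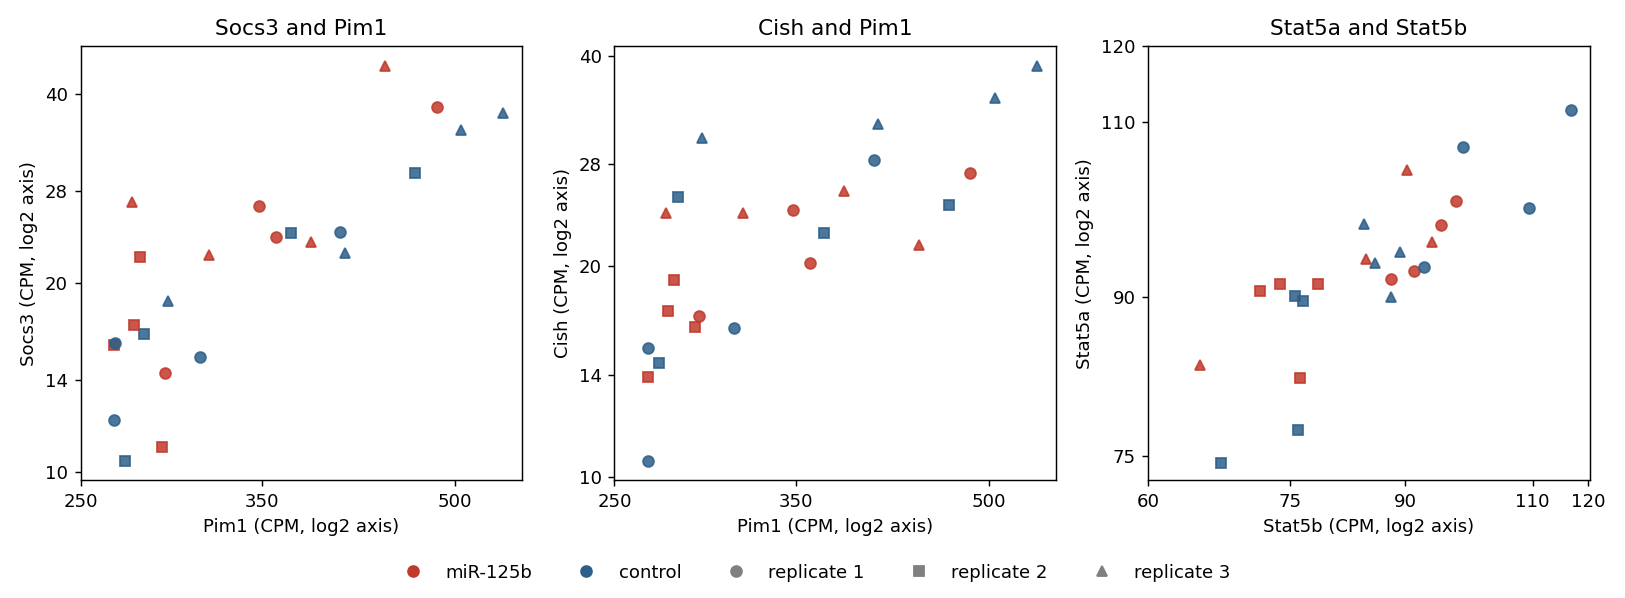
CPM of Socs3 and of Cish against Pim1, and of Stat5a against Stat5b (both axes on a log2 scale), 1 point per library, coloured by construct and shaped by replicate number. Points of both colours run along the same rising band in each panel, with r = 0.82, 0.74 and 0.82, and the 8 libraries of replicate 2 (squares), with 1 of replicate 3, lie to the left for Stat5b.

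The sequence around the transcription starts bears on the genes that moved together. The STAT motif TTCNNNGAA, a palindrome that reads the same on both strands, was searched in RefSeq promoter windows. These span 300 bases (250 before to 50 after a start, GRCm38.p6), and 9 members had 12 of them, while Socs2 had none. The motif was present in 2 members, Cish and Socs3, which had a single window each. It was present in 8.30% of all 32851 windows. Cish had 2 matches within its window, as 0.457% of all windows did, from base 1 and base 12 counted from the RefSeq start. Socs3 had 1 match that begins 154 bases before its start. Pim1, although it varied with both, had no such letters in either of its windows, which draws nothing about STAT binding. The stretches are shown with the motif in capitals.
Cish, chr9:107296654-107296683, plus strand: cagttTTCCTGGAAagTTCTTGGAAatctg
Socs3, chr11:117969501-117969530, minus strand: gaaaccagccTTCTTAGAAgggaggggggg

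How much of each gene's spread belonged to the groups and how much to the replicate number was compared over log2 CPM. The 8 groups held 60.9% of the variance of Socs1, 38.9% of Socs2, 34.2% of Jak3 and 33.3% of Socs3, and 13.0% to 20.5% of the other 6, against a median of 36.5% over all tested genes. The replicate number, shared by all groups, held 64.9% of the variance of Stat5b, 48.1% of Stat3, 44.0% of Stat5a, 37.8% of Cish and 31.01% of Jak2, against a median of 18.4%. It held 9.15% for Socs1 and 13.7% for Jak3. Replicate 1 was above replicate 2 in 8 of 8 groups for both Stat5a and Stat5b and in 7 of 8 for Stat3. The median level of Stat5b was 96.4 CPM in replicate 1, 75.8 in replicate 2 and 86.9 in replicate 3.

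**Figure D4:**
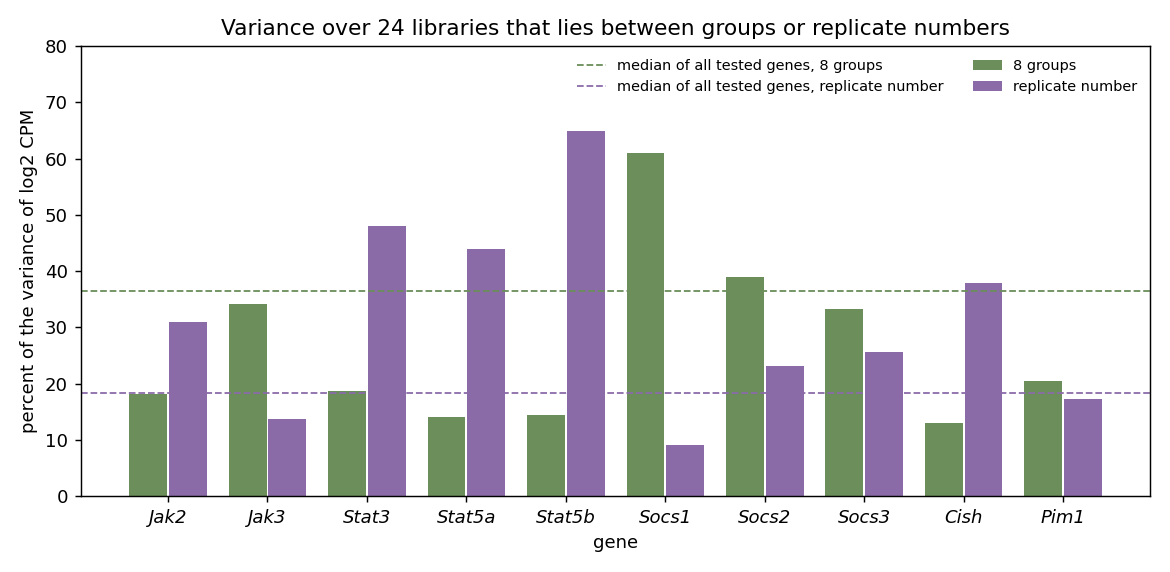
Percent of the variance of log2 CPM over the 24 libraries (vertical axis, from 0) that lies between the 8 groups (green) and between the 3 replicate numbers (purple) for each gene, with dashed lines at the medians of all tested genes. Socs1 reaches 60.9% for the groups and Stat5b 64.9% for the replicate number. Random spread alone gives 8 groups a larger share than 3 numbers, so green and purple bars are not to be compared with each other.

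The markers of cell types also differed by replicate number. The 18 megakaryocyte markers summed to 6446 to 8852 CPM in replicate 2, above the 3619 to 5411 CPM of replicate 1 in every group. The log2 of that sum had r = -0.83 with Stat5b, -0.81 with Stat5a, -0.66 with Stat3 and 0.63 with Jak3 over the 24 libraries. Another list gave similar values. The sum of the 14 hepatocyte and stromal markers, 11 of them under 1 CPM everywhere, had r = -0.78, -0.71, -0.63 and 0.51 with the same genes. That sum too was highest in replicate 2 in every group, so these values cannot tell the lists apart from each other or from the replicate number. The 14 mast cell and basophil markers summed to 310 to 1372 CPM and had r = -0.69 with Cish and 0.56 with Socs2. The 17 erythroid markers summed to 355 to 817 CPM and had r = 0.73 with Stat3. Their part in the levels of these genes was not tested.

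The course over time was compared within each construct. From day 2 to day 10, 0 of the 10 genes were called in control or with miR-125b, with and without the block or by DESeq2. Without the block 0 of 10 had an unadjusted p under 0.05, against 6.75% of all genes in control and 14.9% with miR-125b. Of all genes, 0% were called in control (0.149% with the block) and 0.224% with miR-125b (4.08% with the block). With the block Stat5b had an unadjusted p under 0.05 with miR-125b, at 76.7 ± 13.3 and 88.4 ± 10.6 CPM (adjusted p = 0.224). Socs1 had one in control, at 6.02 ± 0.597 and 3.98 ± 0.411 CPM (adjusted p = 0.412), and no other member did in either construct. In that fit 1568 of all 13419 genes had such a p in control and 2976 with miR-125b, so 1 of 10 in each is not above the background. From day 10 to the libraries labelled day 13, 0 of 10 were called in control, where 0.0224% of all genes were (0.0373% with the block), and 0 of 10 had an unadjusted p under 0.05, against 3.51% of all genes.

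With miR-125b the step from day 10 to the libraries labelled day 13, whose label is in doubt, was the widest in the series. It had 3.53% of all genes called (13.4% with the block), and 0 of the 10 passed without the block. Were the day 13 labels exchanged, this step would be the one to withdrawal. Socs1 had 8.37 ± 2.68 CPM at day 10 and 4.74 ± 1.83 at day 13, a log2 fold change of -0.82 ± 0.31 (adjusted p = 0.129). With the block it was -0.82 ± 0.27 (adjusted p = 0.0452), and 1 of 10 passed. Socs3 had -1.02 ± 0.41 (adjusted p = 0.163, or 0.0621 with the block) and Jak3 -0.53 ± 0.19 (0.122, or 0.0517). Without miR-125b replicate 2 at day 10, the fit without a block called Socs1 (-1.06, adjusted p = 0.0432) and Socs3 (-1.35, adjusted p = 0.0472). The blocked call of Socs1 was lost without miR-125b replicate 1 (-0.69, adjusted p = 0.187) or 3 (-0.72, 0.192) of day 10, or replicate 1 (-0.87, 0.110) or 2 (-0.59, 0.227) of day 13. These comparisons share the day 10 miR-125b libraries with those against control.

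Withdrawal of doxycycline was compared with its continuation at day 13, within libraries so labelled. By edgeR 0 of the 10 genes were called in either construct, with or without the block. DESeq2 also called 0 of 10, and without the block 0 of 10 had an unadjusted p under 0.05, against 2.65% of all genes in control and 2.21% with miR-125b. Of all genes, 0% were called in control (0.00745% with the block) and 0% with miR-125b (0.0522% with the block). Socs1 had 7.07 ± 1.74 CPM after withdrawal and 4.74 ± 1.83 with continued doxycycline under miR-125b, a log2 fold change of 0.58 ± 0.31 with an interval of -0.06 to 1.21. With the block it was 0.61 ± 0.27, with an interval of 0.05 to 1.17, an unadjusted p of 0.0333 and an adjusted p of 1.00. In control it had 4.76 ± 1.44 and 4.92 ± 0.671 CPM. Neither the interaction of miR-125b with withdrawal nor that with the step from day 2 to day 10 called a member or any other gene (0% in both fits). The lowest unadjusted p of the 10 was 0.168 for the first and 0.0897 for the second.

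The other genes of the pathway were counted from lists. Of 27 cytokine receptors 20 were tested, and 0 were called in any comparison without the block. Of all genes, 4.99% were called there in at least 1 of the 11 comparisons other than interactions. At an unadjusted p under 0.05 without the block, 0 to 4 of the 20 passed, against 297 to 2757 of the 13419 genes over those comparisons. The 4 were in the mean of the 4 conditions, where 12.1% of all genes passed. With the block 4 of the 20 were called in at least 1 of the 11 comparisons other than interactions, as were 22.6% of all genes, so that this count is near the background. Ifnar1, a chain of the type I interferon receptor, was higher with miR-125b in the mean of the 4 conditions (log2 fold change 0.19 ± 0.05, adjusted p = 0.0156) and at day 10 (0.34 ± 0.09, 0.0292). Csf1r, the macrophage growth factor receptor, was higher at day 10 (2.13 ± 0.59, 0.0295) from a mean of only 0.550 CPM. Il3ra (-0.76 ± 0.22, 0.0279) and Il9r (-2.20 ± 0.67, 0.0438), receptor chains of interleukins 3 and 9, fell from day 10 to day 13 with miR-125b in that fit. Of the 6 other kinases and STATs, 0 or 1 had an unadjusted p under 0.05 in each comparison without the block. In that fit 0 of the 6 were called (4.99% of all genes in at least 1 comparison), and with the block 1 was (22.6%). That was Tyk2, a JAK of the type I interferon receptor among others, lower in the mean of the 4 conditions (-0.18 ± 0.05, adjusted p = 0.0291).

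Of 19 other inhibitors and adaptors, all tested, 1 was called without the block, against 4.99% of all genes called in at least 1 of the 11 comparisons. At an unadjusted p under 0.05 in that fit, 4 of the 19 passed at day 2, against 5.28% of all genes. In the mean of the 4 conditions 6 passed, against 12.1%, and at day 13 0 passed, against 2.89%. The list was chosen with earlier results known, and its difference from all genes was not tested. Pias4, a SUMO ligase that restrains STAT activity, had 46.8 ± 3.01 CPM under miR-125b against 56.2 ± 4.95 in control at day 2 and 43.7 ± 4.68 against 56.0 ± 6.69 after withdrawal. Its log2 fold change over the 4 conditions was -0.24 ± 0.05 (adjusted p = 0.0250). With the block 8 of the 19 were called in at least 1 comparison (22.6% of all genes), among them Sh2b3, an adaptor that inhibits Jak2, lower by -0.26 ± 0.04 over the 4 conditions (adjusted p = 0.00030, against 0.364 without the block). Sh2b3 was lower with miR-125b at day 2 in each pair, at 40.2, 56.6 and 41.2 CPM against 51.4, 73.8 and 51.3, and replicate 2 was the highest of both groups. Shc1, an adaptor of receptor kinases, was lower over the 4 conditions (-0.18 ± 0.04, adjusted p = 0.0126), and Socs5, another SOCS inhibitor, fell from day 2 to day 10 with miR-125b (-0.73 ± 0.17, adjusted p = 0.0220), both with the block.

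Of 27 further STAT targets 26 were tested and 2 were called without the block (4.99% of all genes in at least 1 comparison). At an unadjusted p under 0.05 in that fit, 7 of the 26 passed in the mean of the 4 conditions, against 12.1% of all genes. At day 2 0 passed, against 5.28%, and the difference from all genes was not tested. Cdkn1a, the cell cycle inhibitor p21, had 231, 171 and 421 CPM under miR-125b against 126, 136 and 154 in control at day 10, a log2 fold change of 0.99 ± 0.23 (adjusted p = 0.0470). It fell again from day 10 to the libraries labelled day 13 with miR-125b (-1.12 ± 0.23, adjusted p = 0.0203). Dusp6, a phosphatase of the ERK kinases, was lower over the 4 conditions (-0.53 ± 0.11, adjusted p = 0.0181), with 9.78, 14.4 and 8.27 CPM against 23.5, 15.6 and 19.2 at day 10. With the block 9 of the 26 were called in at least 1 comparison (22.6% of all genes), among them Bcl2, a survival factor (0.38 ± 0.12 at day 10, adjusted p = 0.0493), and Tfrc, the transferrin receptor, which rose from day 10 to day 13 with miR-125b (0.90 ± 0.20, adjusted p = 0.0101).

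Last, the genes whose log2 CPM was most like each member over the 24 libraries were listed among 9739 genes with an average log2 CPM of at least 2. Socs3 was most like Pim2, another kinase of the Pim family (r = 0.91), then Btg2 and Rabgap1l (both 0.89). Socs1 was most like H2-DMa (0.88), Usp18 (0.87), an interferon-induced inhibitor, and Hpcal1 (0.85). Cish was most like Id1 (0.86), Tcirg1 (0.85) and Tbkbp1 (0.83), and Pim1 most like Gpr146 (0.89), Adora2a (0.88) and Mknk1 (0.87). Socs2 was most like Stap1 (0.84), Slc39a6 and Pter (both 0.81).

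Jak3 was most like Spred3 (0.96), Mcf2l (0.91) and Insl3 (0.90), the last being the gene whose exons it overlaps. Stat5b was most like Ncoa4 (0.96), Xkr5 and Abca2 (both 0.91). Stat5a was most like Tns3 and Itga4 (both 0.85) and Abca2 (0.84), and Stat3 was like Tti1 (0.83) and Mgme1 (0.81). Jak2 had the least close ones, Fgl2 (0.75), Sgms1 (0.73) and Dpp4 (0.70). No other member was among the 3 closest genes of any member.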

How the data were processed

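RNA was sequenced from 24 libraries. The deposited table holds read counts per gene, 1 column per library; per the submitters' processing notes it was made with fastp, HISAT2 2.0.5 and featureCounts on mm10, with strandedness and annotation release not given in the sources used here. Of 47069 identifiers 46488 matched a GENCODE M21 symbol, and at most 0.0638% of a library's counts lay on unmatched ones. Totals were 14694900 to 23755245. No pair of replicates agreed within sampling noise (chi-square 10.7 to 99.9 per degree of freedom).

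From the counts, edgeR 4.0.16 in R 4.3.3 fitted a quasi-likelihood model (TMM, filterByExpr, glmQLFit with robust estimation) with 1 coefficient per group and 16 residual degrees of freedom. P-values were two-sided and adjusted by Benjamini-Hochberg over 13419 genes, with calls at 0.05. SEs and 95% intervals came from the F statistic. CPM are counts scaled to a common library total with TMM, and log2 CPM used a prior count of 2.

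The labels give replicate numbers 1 to 3 in every group without saying what a number shares. Deviations from group means correlated at 0.163 to 0.781 (median 0.475) in all 84 same-number pairs, so the numbers pair the libraries and the blocked fit is given where it changes a call. The median between numbers was -0.304, which is no separate evidence, since the 3 deviations of a group sum to 0. Alternatives were DESeq2 1.42.0, its size factors, no filter on low counts, a newer quasi-likelihood estimate, the compared groups alone and each library left out.

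The members and lists were chosen with earlier results of these data known. Of the other pathway lists, up to 4 genes called in any comparison with or without the block were named by lowest p. Of the genes this rule and the search for the most similar genes named, 1 is not reported here.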

Additional observations from a re-analysis of the deposited data

How the results depend on the processing

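The count of members called was 0 of 10 in all 13 comparisons and moved in 3 of them. At day 10 it was 1 with the replicate block and 1 with DESeq2, and 0 to 1 when single libraries were left out. In the mean of the 4 conditions it was 1 with the replicate block, 1 with DESeq2 and 0 to 1 with libraries left out. For day 13 against day 10 with miR-125b it was 1 with the replicate block and 0 to 2 with libraries left out. The replicate block changed no other call of a member, and the left-out libraries that changed one are named beside the results. The cause was not tested. Some small fold changes turned sign. Over day 2 and day 10 alone Stat3 had a log2 fold change of -0.030 and Pim1 of 0.072, and with the replicate block Stat5a had 1.5e-05. With single libraries left out, Socs1 at day 13 ran from -0.36 to 0.20, and in the mean of the 4 conditions Jak3 ran from -0.0205 to 0.10, Jak2 from -0.0070 to 0.045, Stat3 from -0.0049 to 0.036 and Stat5a from -0.040 to 0.031. Of 432 alternative values for the 21 fold changes of the fit without the block, 406 kept direction and side of the threshold. None of the 21 was called, so none of them had a call to lose. The blocked calls of Socs1 were lost in 4 of 6 left-out fits at day 10 and in 3 of 24 in the mean of the 4 conditions. For day 13 against day 10 with miR-125b the call was lost in 4 of 6. Depth limits Socs1 most, at 49 to 195 reads per library, and the number of 3 libraries per group limits all 10 genes.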
